A study of Mus musculus with 16 samples.

Results

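The nuclear receptors and coactivators that set fatty acid use in the heart were followed through 22 Affymetrix probe sets for 10 genes: the PPAR isotypes Ppara, Ppard and Pparg, their partners Rxra, Rxrb and Rxrg, the PGC-1 coactivators Ppargc1a and Ppargc1b, and the estrogen-related receptors Esrra and Esrrg. The members were all probe sets that the array annotation assigned to exactly 1 of these symbols, of 34945 probe sets with 1 symbol and 45037 that were not controls. Ppargc1a had 5 probe sets, Ppara, Rxra and Esrrg had 3 each, Ppard and Esrra had 2 each, and the other 4 genes had 1 each. A further probe set that listed Ppard together with 1810013A23Rik was left out.

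PPARs are ligand-activated transcription factors that bind DNA as dimers with a retinoid X receptor (RXR) at direct repeats of a short half-site, with fatty acids and their derivatives among their ligands. In heart muscle, PPARalpha (the product of Ppara) drives genes of fatty acid uptake and oxidation, and the PGC-1 proteins are coactivators that dock on PPARs and on estrogen-related receptors (ERRs). ERRs have no known natural hormone and drive genes of the citric acid cycle and the respiratory chain together with PGC-1.

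The study took total RNA from the left ventricle of PPARalpha-/- mice (KO below) and wild-type mice (WT), 28 days after transverse aortic constriction (TAC, a narrowing of the aorta that raises the pressure load on the ventricle) or after a sham operation. The 4 groups were KO TAC, KO sham, WT TAC and WT sham, with 4 arrays each and 16 in all. The design asks how loss of PPARalpha changes cardiac expression at rest and under sustained load. The labels give no strain, sex, age or description of the Ppara allele, and they do not say that the 4 arrays of a group came from separate mice, so p-values measure the spread between arrays, which may be technical.

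Signals are intensities scaled on each array to a common trimmed mean, of 499.8 to 499.82 over the 16 arrays, and the number of arrays limits the precision. Cardiomyocyte markers were bright in all groups: the summed signal of 10 genes was 504764.1 to 636450.5 on KO TAC arrays, 594355.5 to 701284.4 on KO sham arrays, 653455.7 to 891856.3 on WT TAC arrays and 532321.8 to 636680.7 on WT sham arrays. The sum of 8 fibroblast markers was 63487.7 to 70778.7 on KO TAC arrays, above its range on KO sham arrays (41123.8 to 48036.5), WT TAC arrays (43765.7 to 57050.6) and WT sham arrays (42143.1 to 45437.7). Within that list Postn, Col1a2, Col3a1 and Lum were higher on every KO TAC array than on all other arrays. Tcf21, Pdgfra, Col1a1 and Dcn overlapped, with Tcf21 at 693.7 to 1114.3 on KO TAC and 849.1 to 1125.8 on KO sham arrays. The sum is therefore not a clear measure of fibroblast number. The log2 ratio of 3' to 5' actin control signal was 0.24 to 0.44 on KO TAC arrays, against 0.60 to 0.81 on KO sham arrays, 0.36 to 0.62 on WT TAC arrays and 0.56 to 0.64 on WT sham arrays. Hybridisation spike-in signal had its lowest mean log2 value, 12.55, on KO TAC array 3 and its highest, 13.68, on WT TAC array 3. Its range was 12.55 to 13.22 on KO TAC, 12.95 to 13.42 on KO sham, 13.20 to 13.68 on WT TAC and 12.89 to 13.08 on WT sham arrays. The KO TAC and WT TAC ranges barely overlapped, so spike-in signal and genotype are hard to tell apart after TAC. The summed signal of 9 macrophage markers was 28757 to 36358 on KO TAC arrays, 25634.8 to 29018.4 on KO sham arrays, 20351.6 to 27858.6 on WT TAC arrays and 22248.1 to 24747 on WT sham arrays. The sum of 10 skeletal muscle markers, 6 of them tested, was 92026.3 to 124905.4 on KO TAC arrays and 60195.2 to 84399.6 on KO sham arrays, and 89685.8 to 131315.8 on WT TAC arrays and 71286.3 to 83252.8 on WT sham arrays. Nearly all of that sum was Acta1 (10503.7 to 68103.7 over all arrays) and Ckm (46242.3 to 64390.5). No other marker of the list read above 462.7 on any array, so the sum does not show more skeletal muscle RNA after TAC. Summed signal over all arrays was 12592.1 to 16571.6 for 8 endothelial markers. For 3 atrial markers it was 752.6 to 5231.3 on KO TAC arrays and 1322.3 to 26325.3 on KO sham arrays. On WT TAC arrays it was 253.6 to 2073.6, and on WT sham arrays 415.1 to 8128.7. The part of these differences in the results below was not tested. In tissue RNA, fewer cells of a type and less RNA per cell cannot be told apart.

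Of the 22 member probe sets, 20 were bright enough to be tested, among 27022 tested on the array. The second Ppard probe set, 1425703_at, read 4.5 to 14.6 and was at or under the floor of 11.9 on 11 of 16 arrays. The third Rxra probe set, 1430497_at, read 5.4 to 115.3 and was at or under the floor on 6 of 16 arrays. Neither was tested.

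Promoter sequence is shown for 3 members that the results turn on: Ppara, called between genotypes, and Rxrg and Esrra, whose readings in KO TAC hearts and after TAC were low without passing the test. The windows are the 250 bases before a RefSeq transcript start, on build GRCm38.p6, written 5' to 3' on the gene's strand: Ppara chr15:85735526-85735775 on the plus strand, Rxrg chr1:167618015-167618264 on the plus strand and Esrra chr19:6921809-6922058 on the minus strand. Capitals mark the nuclear receptor half-site AGGTCA, searched on both strands, and which start site the heart uses is not known from these data.
Ppara: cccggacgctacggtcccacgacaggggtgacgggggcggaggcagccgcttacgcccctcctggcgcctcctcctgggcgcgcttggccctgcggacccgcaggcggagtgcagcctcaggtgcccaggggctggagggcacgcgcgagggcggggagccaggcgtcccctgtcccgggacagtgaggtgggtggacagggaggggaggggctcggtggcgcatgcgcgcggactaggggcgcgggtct
Rxrg: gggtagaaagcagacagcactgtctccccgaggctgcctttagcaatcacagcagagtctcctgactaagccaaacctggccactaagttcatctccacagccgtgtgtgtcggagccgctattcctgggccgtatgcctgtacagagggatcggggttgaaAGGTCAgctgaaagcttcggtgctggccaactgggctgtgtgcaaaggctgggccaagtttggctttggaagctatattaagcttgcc
Esrra: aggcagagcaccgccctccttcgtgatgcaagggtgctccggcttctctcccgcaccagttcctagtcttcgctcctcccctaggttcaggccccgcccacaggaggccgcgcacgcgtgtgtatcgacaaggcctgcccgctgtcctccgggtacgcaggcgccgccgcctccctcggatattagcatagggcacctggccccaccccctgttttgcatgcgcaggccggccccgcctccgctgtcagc
The Rxrg window held 1 half-site, 88 bases before the start, and the Ppara and Esrra windows held none. Rxrg has a second RefSeq start in the table (chr1:167598112-167598361), whose window held none. RefSeq windows were found for 9 of the 10 genes, 17 in all, and 4 of the 17 held AGGTCA, those of Pparg, Rxra and Rxrg. The same letters were in 14.0% of 32851 mouse promoter windows of that length. The ERR element TCAAGGTCA, which contains the half-site, was in 0 of 17 member windows and in 0.387% of all windows. The direct repeat of 2 half-sites spaced by 1 base, the classical PPAR element, which contains the half-site as well, was in 0 of 17 member windows and in 0.033% of all windows. These are matches of letters in short windows and not binding sites.

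Ppara, the gene disrupted in the KO mice, had the largest differences between genotypes among the members, and no other member gene was called between KO and WT, except Rxrg after TAC when each gene was read by 1 probe set. Signal was lower in KO hearts on all 3 of its probe sets and after either operation, by 2.34 to 10.04 times, but it was well above the floor on every KO array. The sources used here do not place the 3 probe sets relative to the disrupted part of the gene, so a probe set outside it would not check the genotype labels.

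For Ppara 1449051_at, KO TAC arrays read 351.7, 241.8, 205.3 and 180.1, and KO sham arrays 748.1, 737.2, 401.4 and 634.1. WT TAC arrays read 3088.2, 2586.3, 1821.0 and 2197.0, and WT sham arrays 3258.8, 2671.3, 2243.1 and 3015.2. Every KO array was below every WT array, and every KO TAC array was below every KO sham array, while WT TAC and WT sham arrays overlapped. The mean signal was 245 ± 75.7 in KO TAC, 630.2 ± 161 in KO sham, 2423 ± 542 in WT TAC and 2797 ± 441 in WT sham hearts (SD, n = 4 each). The log2 fold change of KO over WT after TAC was −3.33 ± 0.25 (SE, limma adjusted p = 6.73e-06). After sham operation it was −2.18 ± 0.25 (SE, limma adjusted p = 0.000592).

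For Ppara 1457721_at, KO TAC arrays read 524.7, 423.9, 506.8 and 388.1, and KO sham arrays 727.1, 561.9, 652.4 and 524.2. In WT hearts, TAC arrays read 2171.4, 1557.8, 1384.9 and 1920.6, and WT sham arrays 2307.6, 1968.5, 1546.0 and 2213.7. KO and WT did not overlap, whereas the highest KO TAC array just passed the lowest KO sham array. The log2 fold change of KO over WT was −1.92 ± 0.18 after TAC (SE, limma adjusted p = 5.29e-05) and −1.70 ± 0.18 after sham operation (adjusted p = 0.000273).

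For Ppara 1439675_at, KO TAC arrays read 440.2, 291.5, 456.8 and 402.5, and KO sham arrays 506.7, 664.8, 517.5 and 620.1. The WT TAC arrays gave 1311.0, 1283.7, 759.9 and 852.4, and WT sham arrays 1464.8, 1300.8, 1248.5 and 1369.3. All KO arrays lay below all WT arrays, and the WT TAC arrays fell into 2 near the WT sham level and 2 below it. KO over WT gave a log2 fold change of −1.38 ± 0.19 after TAC (SE, limma adjusted p = 0.00286) and −1.23 ± 0.19 after sham operation (adjusted p = 0.01275). The sham call was lost without WT sham array 1 (adjusted p = 0.0536) or KO sham array 1 (adjusted p = 0.05145), and with the replicate number as a block (adjusted p = 0.05663). The TAC call was lost in a fit to the arrays compared alone (adjusted p = 0.1196) and with spike-in signal as a covariate (adjusted p = 0.07035).

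**Figure D1:**
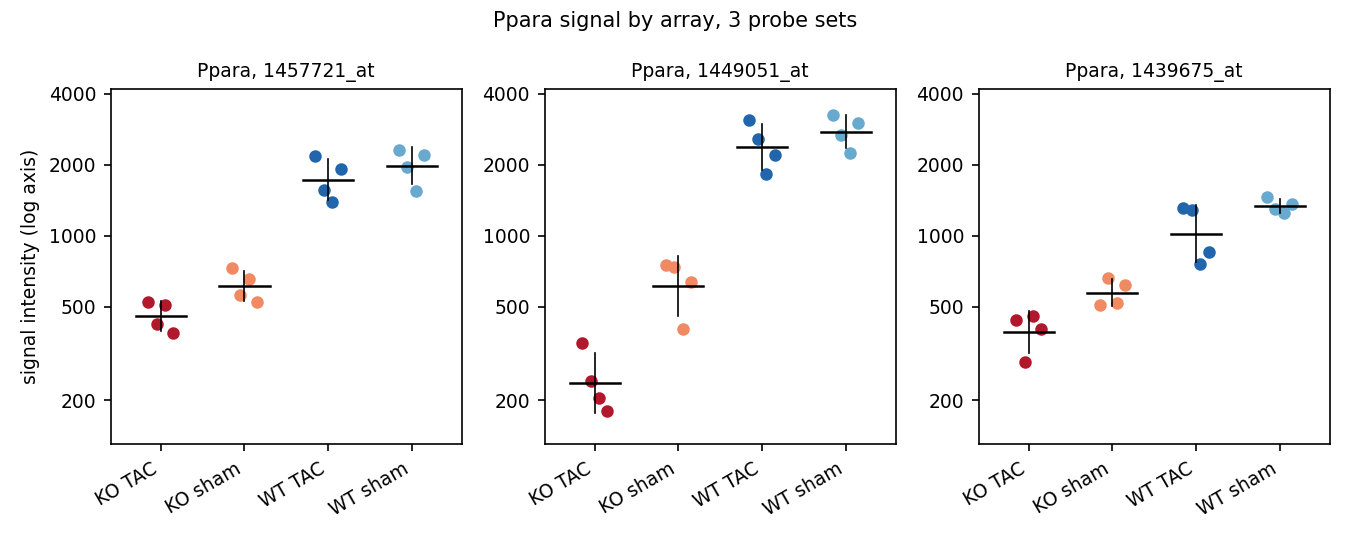
Signal intensity of the 3 Ppara probe sets on a log axis, with 1 point per array in the 4 groups, a bar at the mean of the log2 values and a line of 1 SD either side (n = 4 each). KO TAC and KO sham points lie below all WT points in each panel, and on 1449051_at the KO TAC points (180.1 to 351.7) lie below the KO sham points (401.4 to 748.1).

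The 3 Ppara probe sets did not shift by the same amount. The KO-over-WT change was larger for 1449051_at than for the other 2, so the log2 ratio of 1457721_at to 1449051_at was 0.94 higher in KO than in WT hearts over both operations. The log2 ratio of 1449051_at to 1439675_at was 1.45 units lower in KO (change −1.45). Both had p = 0.00041 in an exact two-sided permutation test of genotype labels within each operation, the smallest p its 4900 arrangements can give, and adjusted p = 0.00738 over 36 such tests. For 1457721_at against 1439675_at the change was −0.50 (exact adjusted p = 0.0734). The 36 tests covered 18 pairs of probe sets of 5 genes and both factors, and were added after the values had been seen.

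After TAC, Ppara signal on 1449051_at fell further in KO hearts. TAC over sham in KO gave a log2 fold change of −1.37 ± 0.25 (SE, limma adjusted p = 0.02002). It was −0.22 ± 0.25 in WT hearts (adjusted p = 0.906), and the difference between the responses, −1.15 ± 0.35, did not pass (adjusted p = 0.453), so the response is not shown to differ between genotypes. The KO call was close to the threshold: it was lost when KO sham array 1, 2 or 4 or KO TAC array 2, 3 or 4 was left out (adjusted p 0.05649, 0.06695, 0.05689, 0.06304, 0.07246 and 0.06064 in that order). It was also lost with arrays centred on their medians (adjusted p = 0.0566), with no filter on dim probe sets (0.05616), with only the KO arrays in the fit (0.1496), with spike-in signal as a covariate (0.1233) and with WT TAC array 3 and KO TAC arrays 2 and 3 left out together (0.22). The change kept its sign in each of these, between −1.38 and −1.24. The other Ppara probe sets gave −0.55 ± 0.19 (1439675_at, adjusted p = 0.253) and −0.42 ± 0.18 (1457721_at, adjusted p = 0.350) in KO hearts, and −0.39 ± 0.19 (adjusted p = 0.751) and −0.20 ± 0.18 (adjusted p = 0.873) in WT hearts. Over both genotypes the change of 1449051_at was −0.80 ± 0.17 (adjusted p = 0.0662), and it was called without KO sham array 3 (0.03188) or KO TAC array 1 (0.0352). The fibroblast marker sum of the KO TAC hearts was above that of the other 3 groups, as given above, and its part in this fall was not tested.

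Counted over the members, 3 of 20 probe sets were called lower and 0 higher in KO than in WT hearts after sham operation, all of Ppara, against a background of 0.278% lower and 0.0518% higher among all tested probe sets. After TAC it was again the 3 Ppara probe sets lower and 0 higher, against 0.507% lower and 0.414% higher. On the array as a whole 137 probe sets were lower and 112 higher after TAC, a split that became 54 lower and 152 higher when arrays were centred on their medians. Over both operations the same 3 were lower and 0 higher, against 0.644% lower and 0.381% higher, with log2 fold changes of −2.75 ± 0.17 (1449051_at), −1.81 ± 0.13 (1457721_at) and −1.31 ± 0.14 (1439675_at, SE). None of the other 17 member probe sets was called by limma, and at an unadjusted p under 0.05 there were 0 of 17 after sham operation, where 6.77% of all tested probe sets passed, and 2 of 17 after TAC (Rxrg and Esrrg 1457896_at), where 13.99% did. Their log2 fold changes in KO over WT ran from −0.42 to 0.18 after sham operation, with a median of −0.06, where all tested probe sets had a median of 0.01. After TAC they ran from −0.76 to 0.41, with a median of −0.23, against 0.00 for all tested probe sets. Centring arrays on their medians moved the median of all tested probe sets to 0.19 in this comparison, and the members' median, Ppara included, from −0.30 in the deposited scaling to −0.11.

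**Figure D2:**
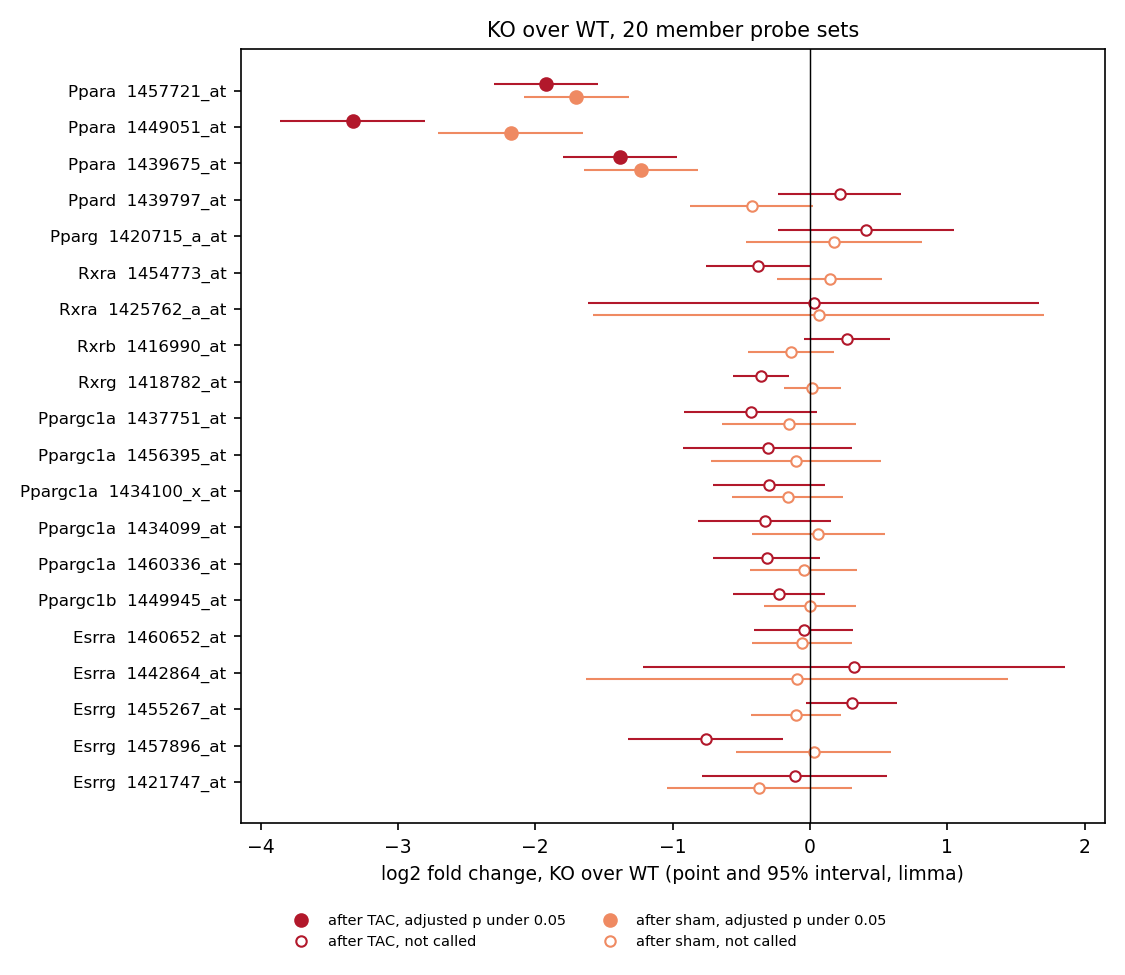
log2 fold change of KO over WT for the 20 tested member probe sets, after TAC and after sham operation, as limma estimates with 95% intervals, and filled points for adjusted p under 0.05. The 3 Ppara probe sets are the filled points, from −3.33 to −1.23, and the intervals of the other 17 probe sets include 0 except those of Rxrg and Esrrg 1457896_at after TAC.

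The other PPAR isotypes were not called in any comparison. For Ppard 1439797_at, whose product is the widely expressed PPARdelta and also drives fatty acid oxidation in heart muscle, KO TAC arrays read 331.8, 227.5, 324.9 and 429.7, and KO sham arrays 228.4, 353.4, 265.6 and 205.6. WT TAC arrays read 316.5, 238.3, 234.9 and 325.9, and WT sham arrays 395.2, 362.3, 297.6 and 335.4. All 4 groups overlapped. The log2 fold change of KO over WT was −0.42 ± 0.21 after sham operation (SE, 95% interval −0.87 to 0.02, limma adjusted p = 0.769) and 0.22 ± 0.21 after TAC (−0.23 to 0.66, adjusted p = 0.697). The TAC response was 0.31 ± 0.21 in KO and −0.33 ± 0.21 in WT hearts, and their difference of 0.64 ± 0.30 did not pass (adjusted p = 0.571).

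For Pparg 1420715_a_at, the isotype best known for driving fat cell formation, KO TAC arrays read 238.0, 323.9, 347.0 and 481.8, and KO sham arrays 559.2, 339.7, 250.4 and 250.7. In WT hearts, TAC arrays read 273.8, 252.1, 231.3 and 261.6, and WT sham arrays 430.2, 271.5, 178.6 and 350.1. The groups overlapped, and the WT TAC arrays were the closest together. KO over WT was 0.41 ± 0.30 on the log2 scale after TAC (SE, limma adjusted p = 0.590) and 0.18 ± 0.30 after sham operation (adjusted p = 0.964). Of 9 adipocyte markers 7 had a probe set and 3 passed the filter on dim probe sets. The defining marker Adipoq, with Lep, Cidec and Ucp1, was below the filter, and Adipoq read 3.4 to 223.1 over the 16 arrays. The 3 that passed were Plin4 (2971.9 to 4899.1), Cidea (1788.9 to 3044.5) and Retn (29.4 to 239.1). The summed signal of the adipocyte markers was 5550.2 to 6936.9 on KO TAC arrays, 5795.2 to 7269.4 on KO sham arrays, 6481.5 to 7623.0 on WT TAC arrays and 7045.2 to 7576.2 on WT sham arrays, and its part in the Pparg values was not tested.

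Among the RXR partners, Rxrg, the isotype enriched in striated muscle, was lowest in the KO TAC hearts. For Rxrg 1418782_at, KO TAC arrays read 1462.1, 1435.4, 1537.1 and 1510.5, and KO sham arrays 1736.0, 2099.7, 1815.5 and 1812.8. The WT TAC arrays gave 1787.9, 1844.9, 1907.8 and 2089.3, and WT sham arrays 1939.7, 1771.9, 1746.2 and 1898.0. Every KO TAC array was below every array of the other 3 groups, which overlapped one another. The mean was 1486 ± 46.0 in KO TAC, 1866 ± 160 in KO sham, 1907 ± 131 in WT TAC and 1839 ± 94.4 in WT sham hearts (SD, n = 4 each). The log2 fold change of KO over WT after TAC was −0.36 ± 0.10 (SE, limma adjusted p = 0.109), and that of TAC over sham in KO was −0.33 ± 0.10 (adjusted p = 0.158). Both missed the threshold, as did the difference between the TAC responses, −0.38 ± 0.14 (adjusted p = 0.494). With 1 probe set per gene the KO-over-WT value after TAC was called (adjusted p = 0.0443). When arrays were centred on their medians it was −0.17 (adjusted p = 0.549) and the TAC response in KO was −0.20. After sham operation KO and WT differed by 0.02 ± 0.10. The fibroblast marker sum of the KO TAC arrays lay outside the range of the other 3 groups as well. The cardiomyocyte marker sum of the KO TAC arrays (504764.1 to 636450.5) lay below that of every WT TAC array (653455.7 to 891856.3) and overlapped both sham groups. The part of either sum in the Rxrg values was not tested.

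For Rxra 1454773_at, the broadly expressed partner, KO TAC arrays read 375.9, 549.2, 573.3 and 444.6, and KO sham arrays 614.1, 709.0, 653.3 and 899.1. WT TAC arrays read 558.7, 632.2, 608.9 and 691.7, and WT sham arrays 868.3, 615.1, 551.1 and 579.9. KO TAC arrays were all below the KO sham arrays but overlapped both WT groups. TAC over sham in KO was −0.57 ± 0.18 on the log2 scale (SE, limma adjusted p = 0.190) and −0.05 ± 0.18 in WT (adjusted p = 0.978). KO over WT after TAC was −0.37 ± 0.18 (adjusted p = 0.368). The other tested Rxra probe set, 1425762_a_at, ranged widely within groups, with means of 247 ± 69.2 in KO TAC, 302 ± 215 in KO sham, 299 ± 165 in WT TAC and 249 ± 121 in WT sham hearts (SD, n = 4 each). Its log2 fold changes were between 0.03 and 0.15 in the 4 comparisons of groups, each with an SE of 0.77.

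Rxrb, the other widely expressed partner, was the 1 member whose TAC and sham arrays did not overlap in WT hearts in the deposited scaling. For Rxrb 1416990_at, KO TAC arrays read 1393.3, 1341.0, 1278.5 and 1097.3, and KO sham arrays 1617.6, 1044.5, 1351.0 and 1463.7. In WT hearts, TAC arrays read 951.8, 1213.0, 975.0 and 1097.4, and WT sham arrays 1564.7, 1681.5, 1338.6 and 1395.7. All WT TAC arrays were below all WT sham arrays, while KO TAC and KO sham arrays overlapped. TAC over sham was −0.50 ± 0.15 on the log2 scale in WT (SE, limma adjusted p = 0.620) and −0.09 ± 0.15 in KO (adjusted p = 0.872). The difference between the 2 responses was 0.41 ± 0.21 (adjusted p = 0.591).

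**Figure D3:**
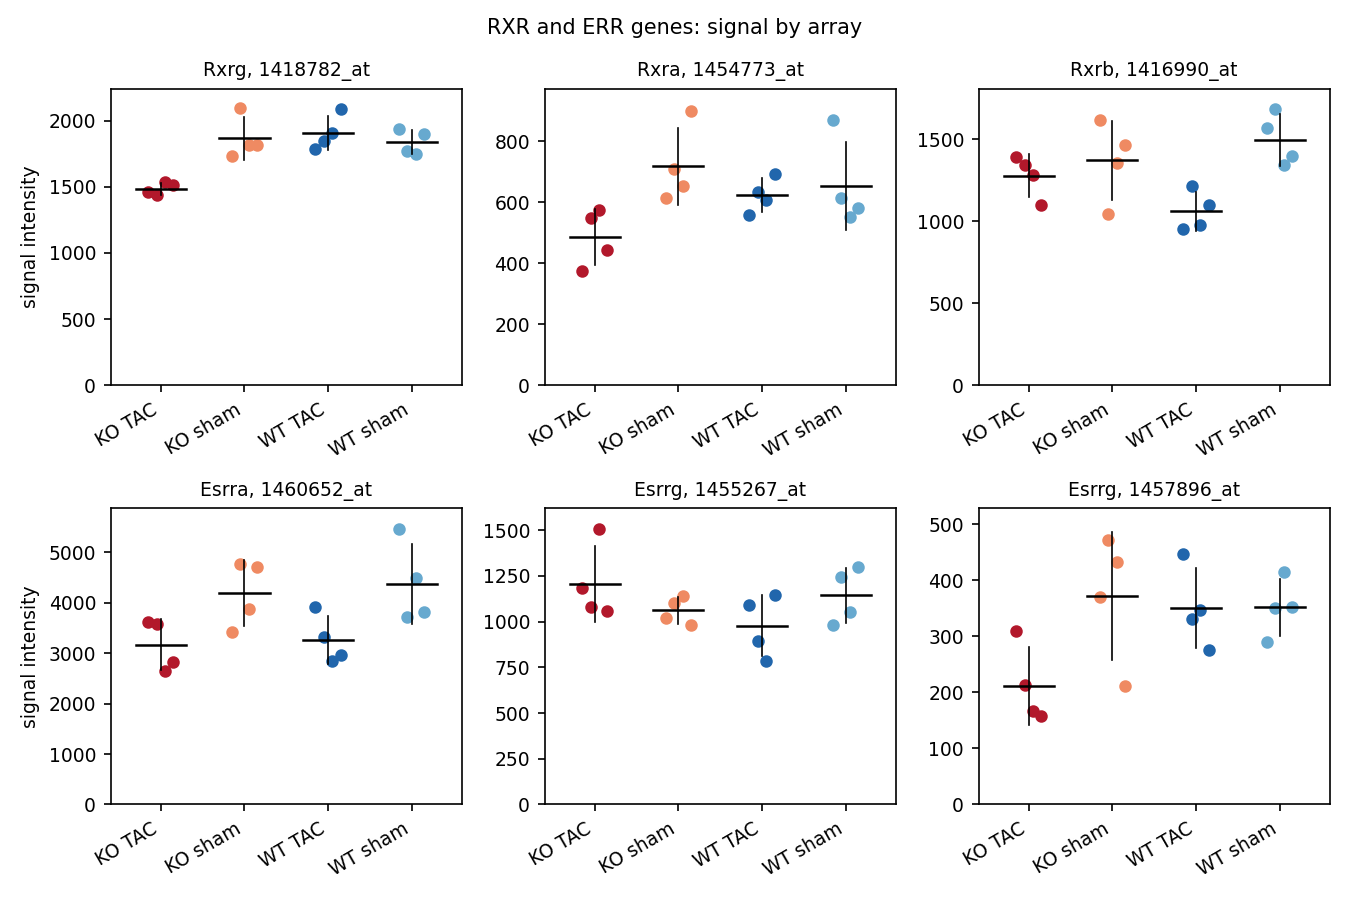
Signal intensity by array for Rxrg, Rxra 1454773_at, Rxrb, Esrra 1460652_at and 2 Esrrg probe sets on linear axes from 0, with a bar at the mean signal and a line of 1 SD either side (n = 4 each). The 4 KO TAC points of Rxrg (1435.4 to 1537.1) lie below all others, the WT TAC points of Rxrb (951.8 to 1213.0) lie below the WT sham points (1338.6 to 1681.5), and the Esrra means are lower after TAC in both genotypes.

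The PGC-1 coactivators were not called in any comparison. For Ppargc1a 1437751_at, KO TAC arrays read 2439.2, 2773.3, 4659.7 and 3148.2, and KO sham arrays 5407.9, 3464.7, 2954.4 and 4028.9. The WT TAC arrays gave 4514.6, 4558.0, 3252.3 and 4896.4, and WT sham arrays 3971.0, 3662.3, 4402.4 and 5302.1. All groups overlapped. KO over WT was −0.43 ± 0.23 on the log2 scale after TAC (SE, 95% interval −0.92 to 0.05, limma adjusted p = 0.423) and −0.15 ± 0.23 after sham operation (adjusted p = 0.959). TAC over sham was −0.29 ± 0.23 in KO (adjusted p = 0.661) and −0.01 ± 0.23 in WT (95% interval −0.50 to 0.47, adjusted p = 0.995).

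For Ppargc1a 1434099_at, KO TAC arrays read 713.6, 1067.7, 964.2 and 991.0, and KO sham arrays 1740.8, 1509.2, 1183.4 and 1160.1. WT TAC arrays read 1520.9, 1067.0, 778.3 and 1435.1, and WT sham arrays 1064.5, 1294.0, 1306.5 and 1692.3. KO TAC arrays lay below KO sham arrays without overlap and overlapped both WT groups. TAC over sham in KO was −0.58 ± 0.23 (SE, limma adjusted p = 0.310). The other 3 Ppargc1a probe sets, 1456395_at, 1434100_x_at and 1460336_at, gave −0.34, −0.21 and −0.19 in KO and −0.14, −0.07 and 0.08 in WT hearts, and in none of them did TAC and sham arrays separate. In KO over WT after TAC the 5 Ppargc1a probe sets lay between −0.43 and −0.30, with adjusted p of 0.423 to 0.686. Centring arrays moved the median of all tested probe sets to 0.19 in this comparison. Under the alternatives, arrays left out included, the 5 kept their sign but ran from −0.80 to −0.01, both for 1456395_at. The 5 are readings of 1 gene in the same RNA and not replicates of the comparison.

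Ppargc1b, the related coactivator, was read by 1449945_at at 2714 ± 411 in KO TAC, 3071 ± 203 in KO sham, 3188 ± 555 in WT TAC and 3092 ± 453 in WT sham hearts (SD, n = 4 each). Its log2 fold change of KO over WT was −0.23 ± 0.16 after TAC (SE, limma adjusted p = 0.553) and 0.00 ± 0.16 after sham operation. The 95% interval of the sham value ran from −0.33 to 0.33.

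**Figure D4:**
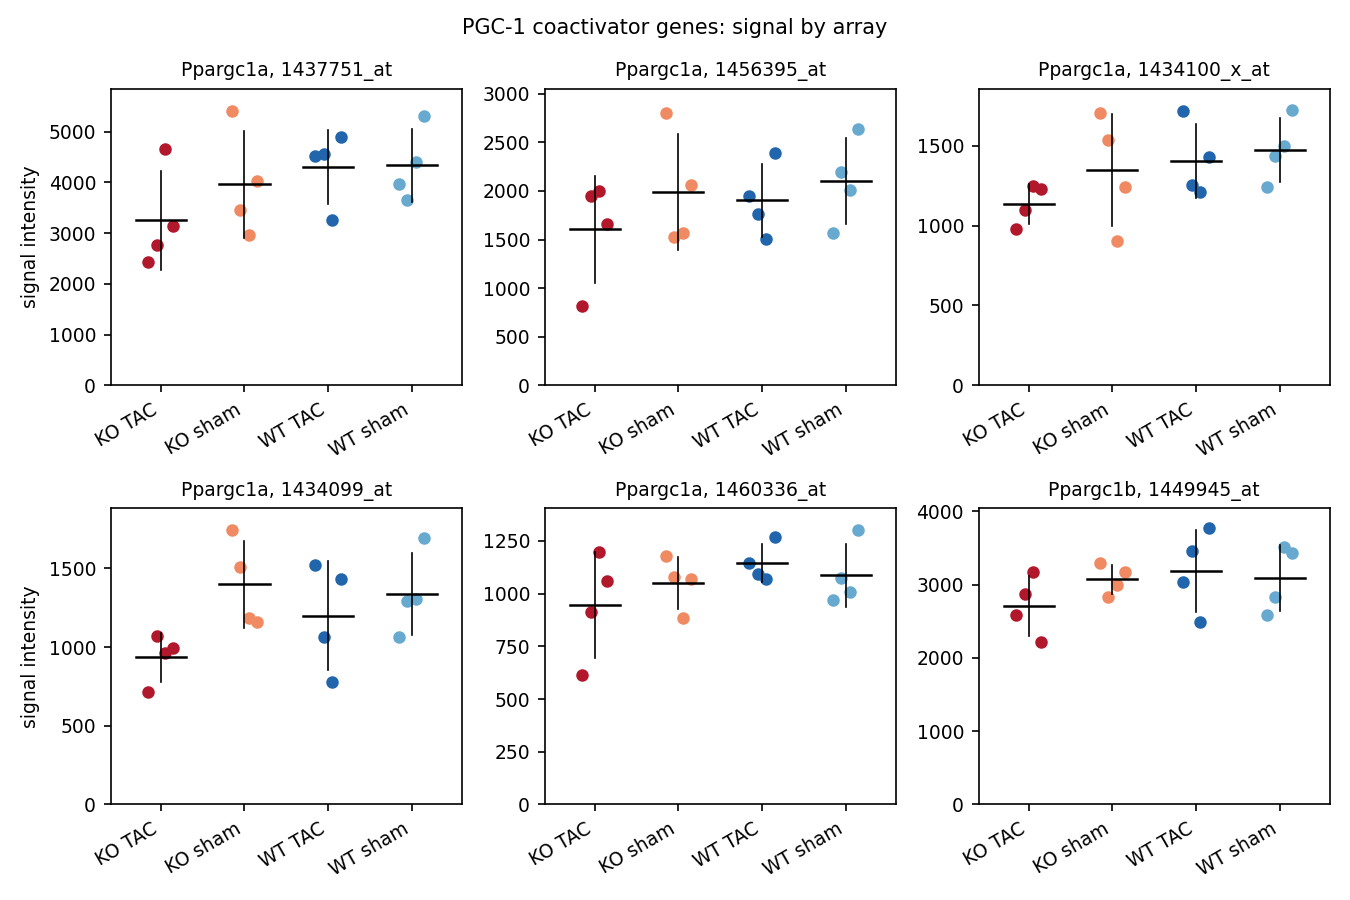
Signal intensity by array for the 5 Ppargc1a probe sets and Ppargc1b on linear axes from 0, with a bar at the mean signal and a line of 1 SD either side (n = 4 each). The groups overlap in each panel, except that the KO TAC points of Ppargc1a 1434099_at (713.6 to 1067.7) lie below its KO sham points (1160.1 to 1740.8).

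Esrra, which encodes ERRalpha, read lower after TAC in both genotypes without passing the test. For Esrra 1460652_at, KO TAC arrays read 3627.5, 3576.4, 2645.7 and 2827.7, and KO sham arrays 3425.1, 4765.6, 3881.8 and 4711.5. In WT hearts, TAC arrays read 3911.5, 3322.9, 2852.9 and 2974.9, and WT sham arrays 5456.5, 3720.9, 4485.0 and 3824.8. TAC and sham arrays overlapped in each genotype. The log2 fold change of TAC over sham was −0.41 ± 0.17 in KO (SE, limma adjusted p = 0.344) and −0.41 ± 0.17 in WT (adjusted p = 0.715), and the difference between them was 0.01 ± 0.24. Under the alternatives, arrays left out included, it ran from −0.50 to −0.28 in KO and from −0.535 to −0.30 in WT. The difference ran from −0.10 to 0.26, so its sign was not stable. Over both genotypes the TAC response was −0.41 ± 0.12 (adjusted p = 0.196), the same under centring of the arrays. It was called where the variance followed a robust trend (adjusted p = 0.0476), a setting that called 384 of 27022 probe sets here, against 144 in the main fit. Between genotypes no difference was called, with KO over WT of −0.05 ± 0.17 after TAC (95% interval −0.41 to 0.32) and −0.06 ± 0.17 after sham operation (−0.42 to 0.31). The second Esrra probe set, 1442864_at, was dim, at 73.6 ± 40.7 in KO TAC, 117 ± 40.2 in KO sham, 69.9 ± 72.2 in WT TAC and 123 ± 41.7 in WT sham hearts, and its TAC response over both genotypes was −1.15 ± 0.51 (adjusted p = 0.448).

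The 3 probe sets of Esrrg, which encodes the muscle-rich ERRgamma, gave estimates of both signs in KO TAC hearts. For Esrrg 1457896_at, KO TAC arrays read 309.6, 213.3, 166.8 and 158.0, and KO sham arrays 370.9, 472.9, 432.2 and 212.3. The WT TAC arrays gave 446.5, 331.8, 348.1 and 276.4, and WT sham arrays 290.5, 351.1, 414.4 and 352.1. KO TAC arrays were mostly lower than the others but overlapped each group. KO over WT after TAC was −0.76 ± 0.26 on the log2 scale (SE, limma adjusted p = 0.223), and TAC over sham in KO was −0.80 ± 0.26 (adjusted p = 0.213). The brightest Esrrg probe set, 1455267_at, gave 0.30 ± 0.15 (adjusted p = 0.403) and 0.17 ± 0.15 (adjusted p = 0.716) in the same comparisons. The third, 1421747_at, gave −0.11 ± 0.31 and −0.28 ± 0.31. In WT hearts TAC over sham was −0.54 ± 0.31 for 1421747_at (limma adjusted p = 0.790), −0.23 ± 0.15 for 1455267_at and −0.02 ± 0.26 for 1457896_at. For 1421747_at the WT TAC arrays read 219.8, 136.1, 298.2 and 192.0, and the WT sham arrays 281.6, 259.5, 327.4 and 320.8. No pair of Esrrg probe sets passed the test of unequal change between genotypes or operations.

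In the TAC comparisons the members were called once. In KO hearts 1 of 20 member probe sets was called lower (Ppara 1449051_at) and 0 higher, against a background of 0.241% lower and 0.488% higher, which on the whole array was 65 lower and 132 higher, or 5 lower and 113 higher with centred arrays. In WT hearts limma called 0 of 20 members, and 0% of all tested probe sets. At an unadjusted p under 0.05 there were 2 members in WT (Rxrb and Esrra 1460652_at), where 6.69% of all probe sets passed, and 8 members in KO, where 12.1% did. With centred arrays these were 4 members in WT, where 1787 of 27022 probe sets passed, and 2 in KO, where 3064 did. The difference between the TAC responses was called for 0 of 20 members and for 0% of all probe sets, with 3 members at an unadjusted p under 0.05 (Ppara 1449051_at, Rxrg and Ppard) and 8.71% of all. Over both genotypes TAC gave 0 of 20 called members, against 0.174% lower and 0.359% higher of all probe sets. On the whole array these were 47 lower and 97 higher, or 9 lower and 49 higher with centred arrays. For 9 members the unadjusted p was under 0.05, where 10.49% of all probe sets passed. With centred arrays it was 5 members, where 2237 of 27022 probe sets passed.

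Member probe sets leaned low after TAC. Over both genotypes 19 of 20 log2 fold changes of TAC over sham were negative, with a median of −0.27, where 51.9% of all tested probe sets were negative with a median of −0.01. The count was 19 of 20 under quantile normalisation and under centring too, and 16 of 17 without Ppara. In each genotype alone 16 of 20 were negative, with a median of −0.31 in KO and −0.19 in WT hearts. Of all tested probe sets 52.5% were negative in KO and 49.5% in WT. With centred arrays the member counts were 15 in KO and 19 in WT. Centring also moved the median of all tested probe sets, to 0.11 in KO and −0.12 in WT. The difference between the responses was negative for 13 of 20 members, but for 7 of 20 with centred arrays, so no direction is given for it. Several of these probe sets read the same gene, and the comparisons share arrays. The lean was not particular to the members. Of the coactivators and corepressors listed below, 15 of 18 were negative over both genotypes, also under quantile normalisation and under centring. In the other lists below, 18 of 27 PPAR target genes, 14 of 24 mitochondrial factors and 10 of 21 other nuclear receptors were negative.

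Separation of the groups without overlap was counted as well, and each separated member was lower in the group named first. KO and WT separated for 4 of 20 members after TAC (3 of Ppara, and Rxrg), against 7.85% of all tested probe sets. With centred arrays the 4 became 3, those of Ppara alone, where 2068 of 27022 probe sets separated, 358 of them lower in KO. Under quantile normalisation they became 6, with Rxra 1454773_at and Ppargc1a 1434100_x_at added, where 1983 probe sets separated, 871 of them lower. After sham operation KO and WT separated for 3 of 20 members, all of Ppara, against 4.98%. With centred arrays it was 4, with Esrrg 1421747_at added, where 1255 probe sets separated, 880 of them lower. TAC and sham separated for 5 of 20 members in KO hearts (Ppara 1449051_at and 1439675_at, Rxra 1454773_at, Rxrg and Ppargc1a 1434099_at), against 8.46%. With centred arrays the 5 became 1, Ppara 1449051_at, where 1950 of 27022 probe sets separated, 482 of them lower after TAC. In WT hearts Rxrb alone separated, 1 of 20 against 3.99%. Esrrg 1421747_at separated there too under quantile normalisation and with centred arrays, where 981 and 1059 of 27022 probe sets separated.

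**Figure D5:**
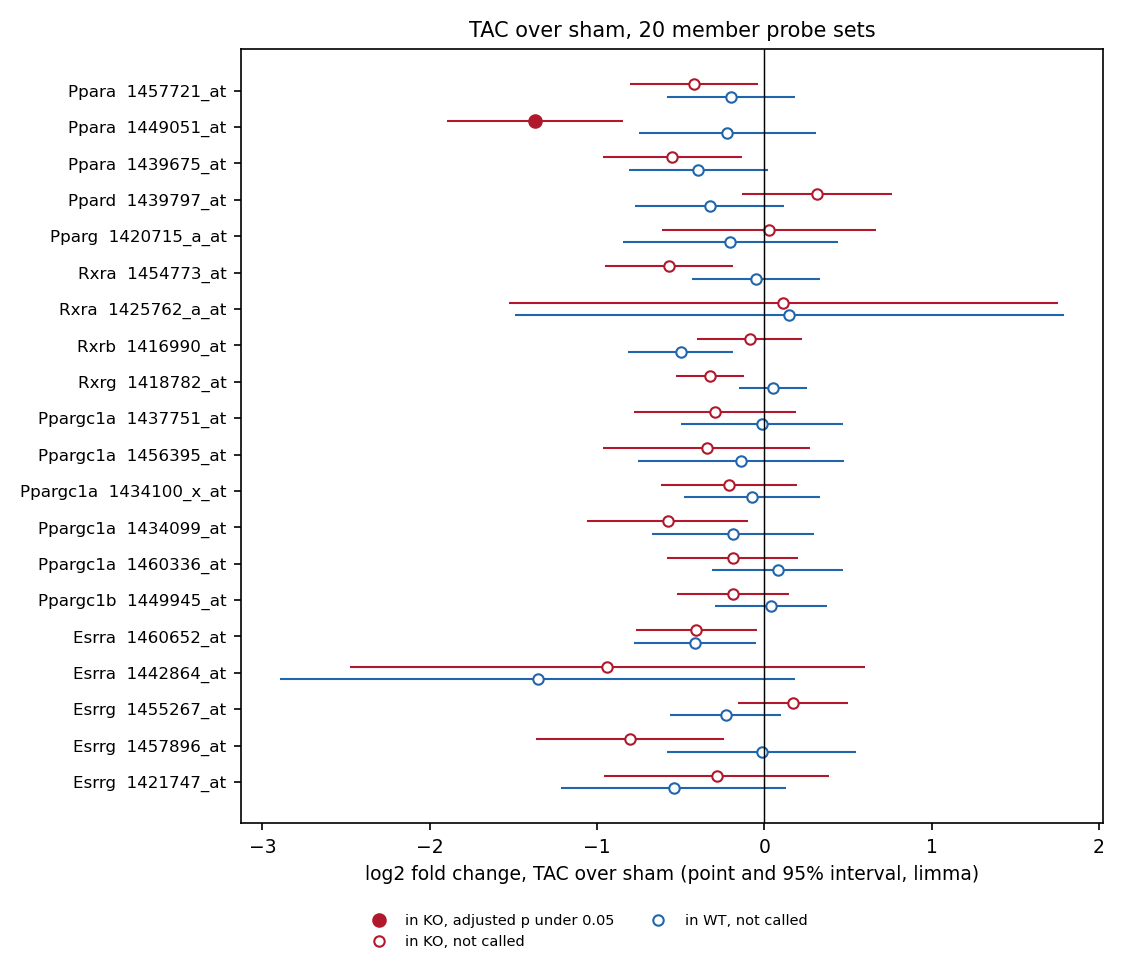
log2 fold change of TAC over sham for the 20 tested member probe sets in KO and in WT hearts, as limma estimates with 95% intervals, and a filled point for adjusted p under 0.05. The single filled point is Ppara 1449051_at in KO (−1.37), and most points lie left of 0 in both genotypes.

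Genes that these regulators act on or with were taken from 4 lists, each gene read by its brightest probe set. Of 35 PPAR target genes of lipid use 27 were tested. In KO over WT 18 were called lower after TAC, with a median log2 fold change of −0.75, and 9 after sham operation, with a median of −0.58, and 0 were higher in either. After TAC the smallest adjusted p-values were those of Ech1 (an enzyme of unsaturated fatty acid oxidation, −1.50 ± 0.10), Plin5 (a lipid droplet coat protein, −2.62 ± 0.18), Decr1 (a reductase of unsaturated fatty acid oxidation, −1.69 ± 0.12) and Cpt2 (which reloads fatty acids on coenzyme A inside mitochondria, −1.26 ± 0.11). The same 4 genes had the smallest adjusted p-values after sham operation. TAC over sham called 3 of 27 lower in KO hearts, namely Acaa2 (−0.76 ± 0.12, limma adjusted p = 0.00817), Eci1 (−0.54 ± 0.09, adjusted p = 0.0133) and Ech1 (−0.54 ± 0.10, adjusted p = 0.0211), all of them enzymes of fatty acid oxidation. In WT hearts 0 of 27 were called, and the difference between the responses was called for 0 of 27. The median of TAC over sham was −0.15 in KO and 0.01 in WT hearts, but these medians moved with the scaling. With centred arrays they were −0.03 in KO and −0.11 in WT, and under quantile normalisation −0.14 and −0.07. The median difference between the responses was −0.19, but 0.06 with centred arrays, so no direction is given for it. With arrays centred on their medians the calls in KO over WT were 10 after TAC and 8 after sham operation, all lower, and those of TAC over sham in KO were 0.

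The list of 20 other coactivators and corepressors had 18 tested genes, and 0 were called in any of the 7 comparisons. The 2 of smallest p for TAC over sham in KO hearts were Ncoa3, a coactivator of the p160 family (−1.03 ± 0.36, limma adjusted p = 0.238), and Prdm16, a coregulator of brown fat genes (−0.36 ± 0.17, adjusted p = 0.429). The list of 27 other nuclear receptors had 21 tested genes with 1 call. It was Nr4a3, an early-response orphan receptor, lower in KO than in WT hearts after sham operation (−1.29 ± 0.25, limma adjusted p = 0.04985), and with centred arrays 0 of the 21 were called. Of 24 mitochondrial factors and respiratory genes under PGC-1 and ERR control, all were tested and 0 were called. In KO over WT after TAC 18 of 24 were negative with a median of −0.19, but 13 of 24 with a median of 0.00 when arrays were centred and 17 of 24 with a median of −0.03 under quantile normalisation. The smallest p there were those of Cs, the citrate synthase (−0.37 ± 0.09, limma adjusted p = 0.0730), and Cycs, the cytochrome c (−0.44 ± 0.12, adjusted p = 0.105).

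The genes whose signal followed a member most closely were ranked by Pearson's r over the 16 arrays among 12979 genes, as a description. The arrays share scaling and groups, and for Ppara the KO and WT arrays are separate clusters, so r there mostly orders genes by their genotype gap. For Ppara 1457721_at they were Hadha (0.970), Fbp2 (0.968) and 1700120C14Rik (0.965), which are a subunit of the mitochondrial trifunctional protein of fatty acid oxidation, a muscle fructose bisphosphatase and an unnamed transcript. For Ppargc1a 1437751_at they were Arfgef1 (0.830), Sez6 (0.820) and Zkscan1 (0.813). For Esrra 1460652_at they were Dhrs7 (0.857), Sys1 (0.827) and Sbk1 (0.809).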

How the data were processed

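Left ventricular RNA samples, 16 in 4 groups of 4 by the sample titles, were measured on Affymetrix 430 2.0 arrays, per the labels. The deposited values are linear signal intensity per probe set, and per the submitters' processing notes the authors used GCOS 1.4. The sources used here do not give its settings. The mean between the 2nd and 98th percentiles was 499.8 to 499.82 on every array, so the table was taken as already scaled.

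Intensity below 11.9 (the 10th percentile over the table) was raised to that floor, and the log2 values were not normalised again. After 64 control probe sets, the 40% of probe sets with the lowest mean log2 signal were left out, which left 27022. A model with a mean for each of the 4 groups was fitted over the 16 arrays with limma 3.58.1 (R 4.3.3), and probe sets were called at a two-sided Benjamini-Hochberg adjusted p under 0.05 over all tested probe sets. The fit was tested on simulated data. Recovery over all probe sets there missed the level first required, and after that the fit was judged on bias, sign, false calls and recovery among probe sets of low spread. Most 2-fold changes put into the simulated arrays were not called, so the lack of a call does not show that a member was unchanged. Of probe sets with 1 symbol, 34741 of 34945 were matched by gene ID to RefSeq on GRCm38.p6. The files name no build, so no position is given for a probe set.

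All member probe sets are described. From each list, up to 4 called genes of smallest adjusted p per comparison are named, or the 2 of smallest p where none is called, and a part of these is printed. The members, lists, markers and alternatives were chosen with earlier results of these data known, and the tests of probe-set ratios were added after the values had been seen. Same-numbered replicates of different groups did not deviate together (24 pairs, Pearson's r of deviations from the group means −0.115 to 0.084, 0 over 0.1), so they were not treated as pairs. The alternatives were 2 other scalings, 2 other floors, no filter, 1 probe set per gene, a robust variance trend, array weights, the arrays compared alone, the replicate block, a spike-in covariate, and arrays left out. The scalings of the list and sign counts were added after the data had been seen.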

Additional observations from a re-analysis of the deposited data

Results flagged for a closer look

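In 3 of 80 sets of 4 arrays (20 tested member probe sets in 4 groups) 1 array stood apart from the other 3 by Dixon's criterion, which chance does in about 1 set in 20. Rxra 1425762_a_at read 57.5 on WT TAC array 4, where the other WT TAC arrays read 361.2, 348.5 and 428.1. It read 69.4 on WT sham array 1, where the other WT sham arrays read 286.9, 333.9 and 307.1. Esrra 1442864_at read 14.0 on KO TAC array 1, against 73.6 ± 40.7 (SD, n = 4) over the KO TAC group with that array included. The other tested Rxra and Esrra probe sets did not stand apart on these arrays.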

How the results depend on the processing

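The lower signal of Ppara in KO hearts kept its direction under every alternative run, and no called member changed sign. With 1 probe set per gene the called members were 1 (Ppara) after sham operation and 1 over both operations. Leaving out 1 array at a time gave 2 to 3 called members for KO over WT after sham operation. For TAC over sham in KO the single call became 0 with centred arrays, with no filter on dim probe sets, with only the arrays compared and with the spike-in covariate. It also became 0 with WT TAC array 3 and KO TAC arrays 2 and 3 left out together, and leaving out 1 array gave 0 to 1. The count was 0 with 1 probe set per gene as well, but Ppara was read there by 1457721_at, which the main fit did not call either. For TAC over both genotypes the count of 0 became 2 with a robust variance trend (Ppara 1449051_at and Esrra 1460652_at). That setting called 384 of 27022 probe sets, 158 of them lower, against 144 and 47 in the main fit. With the replicate block the count became 1 (Ppara 1449051_at, adjusted p = 0.01647), where 85 probe sets were called, 26 of them lower. Leaving out 1 array gave 0 to 1. The replicate block gave 2 called members in KO over WT after sham operation, without Ppara 1439675_at (adjusted p = 0.05663), and changed no other count of called members. In the check of pairing by replicate number, 6 of 16 arrays correlated best with an array of their own number. Members whose groups did not overlap became 2 for TAC in WT under quantile normalisation and under centring, and 1 for TAC in KO under centring. Those for KO over WT, and the counts over all probe sets, are given with the counts above. Of 130 uncalled values of members, 49 changed sign under some alternative, and 3 were called under some alternative. The cause of these changes was not tested, apart from the 1 probe set per gene, which leaves at most 1 reading of Ppara. Signal near the floor limits Rxra 1430497_at, Ppard 1425703_at and Esrra 1442864_at, and 4 arrays a group leave changes of the size of the intervals given above undecided.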
